A study of Arabidopsis thaliana with 16 samples.

Results

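The genes described are the pectin methylesterase genes AT2G47550 (probe set 245151_at) and AT1G02810 (262105_at), the pectin methylesterase inhibitor family gene AT5G62340 (247477_at) and the pectate lyase gene AT1G11920 (264391_at) of Arabidopsis thaliana. They are 4 of the 13333 genes that a probe set of the Affymetrix ATH1 array names alone. They were chosen by their salt changes on these same arrays, which earlier results placed among the strongest decreases: AT2G47550 in zones 1 and 3, AT5G62340 in zone 3, AT1G11920 in zone 4 and AT1G02810 in the average over the zones. The salt values behind each choice are therefore given as a description, with no test. Tests are given for salt changes in the zones that did not enter the choice, and for differences between zones within a medium.

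Seedlings of the ecotype Columbia grown for 5 days on standard medium were moved for 1 h to medium with 140 mM NaCl or to standard medium, and their roots were then cut into 4 zones. Zone 1 was the tip (about 150 µm), zone 2 the following 200 µm to about the end of the meristem, zone 3 a further 200 to 300 µm up to the first root hairs, and zone 4 about 1000 µm above that. The 8 groups were thus NaCl zones 1 to 4 and standard zones 1 to 4, with 2 arrays each and 16 in all. About 15 sections of whole root were pooled per replicate, so fewer cells of a type and less RNA per cell cannot be told apart.

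Homogalacturonan, the main pectin of the primary cell wall, is laid down with methyl esters on its acid groups. Pectin methylesterases remove these esters in the wall. The freed acid groups can be bridged by calcium, which stiffens the wall, or leave the chain open to cutting. Pectate lyases cut such de-esterified chains, and proteins of the inhibitor family include members that bind methylesterases and block them. In the root, the esterification of pectin is tied to how readily the walls of elongating cells and root hairs extend.

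Of the markers fixed for this check, 2 of 7 for root hairs, 2 of 8 for dividing cells, 1 of 6 for shoot tissue and none of 4 for the root cap had a probe set. EXPA7, a root hair expansin gene, had mean signals of 25.2, 24.7, 2098 and 2672 in standard zones 1 to 4, and AUR1, a mitotic kinase gene, had 777, 273, 100.1 and 188, highest at the tip. RCA, the gene of the photosynthetic protein rubisco activase, lay between 29.5 and 155 on the 16 arrays. Under NaCl these markers moved too: EXPA7 averaged 4779 in NaCl zone 3 against 2098 in standard zone 3, and 1006 in NaCl zone 4 against 2672 in standard zone 4. EXPA18, the other root hair marker, averaged 2699 in NaCl zone 3 against 1357 in standard zone 3, and 1175 in NaCl zone 4 against 3952 in standard zone 4. The dividing-cell markers were lower on NaCl in zones 1 and 2. In zone 4 they were higher on NaCl, at 224 against 188 for AUR1 and 62.4 against 49.1 for AUR2. AUR1 averaged 451 in NaCl zone 1 against 777 in standard zone 1 and 178 in NaCl zone 2 against 273 in standard zone 2, and AUR2 averaged 330.4 against 481 and 63.6 against 129 in the same pairs. No marker was at 0. Whether these shifts had a part in the changes described below was not tested.

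AT2G47550 had its highest signal in zone 3, where the difference between the media was also widest. Signals are MAS5 values on a linear scale, and testing was limited to probe sets with 2 or more arrays above 41.357, the 40th percentile of all signals (the filter level), a limit all 4 genes met. In zone 1 the NaCl arrays read 55.0 and 41.3 and the standard arrays 345 and 311. In zone 2 they read 68.1 and 79.1 under NaCl and 344 and 479 on standard medium. In zone 3 the NaCl arrays read 179.5 and 242, against 1740.4 and 1997 on standard medium. In these 3 zones every NaCl array lay below both standard arrays. The same held for 22.5%, 26.1% and 32.3% of all probe sets tested in zones 1 to 3, and zones 1 and 3 chose the gene, so nothing is read from it. In zone 4 the NaCl arrays read 70.5 and 72.0, and they lay between the standard arrays, which read 145 and 65.4.

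As a share of the standard mean, the NaCl mean of AT2G47550 was 14.7% in zone 1 and 11.3% in zone 3, where the gene was chosen. The log2 changes there, on the log2(signal + 16) scale used throughout, which understates the changes of low signals, were -2.43 and -3.07. A change is said to have passed where its adjusted p was under 0.05. In zone 2, which did not enter the choice, AT2G47550 fell to 17.9% of the standard mean (log2 change -2.24, SE 0.25, limma adjusted p = 1.99e-05). In all, 5.2% of the 17099 probe sets tested passed downward in zone 2. In zone 4 the change was -0.39 and did not pass (95% interval -0.93 to 0.15, limma adjusted p = 0.395). That value rests on the standard arrays: it was -0.88 (limma adjusted p = 0.0269) without standard replicate 8 and 0.10 without standard replicate 7.

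Zone 3 had the highest mean of AT2G47550 in both media. Under NaCl the means were 48.1 ± 9.68, 73.6 ± 7.75, 211 ± 44.2 and 71.2 ± 1.02 in zones 1 to 4 (SD, n = 2 each), a 4.39-fold span. On standard medium they were 328 ± 24.0, 411 ± 95.1, 1869 ± 182 and 105 ± 56.1, a 17.8-fold span, and the arrays of zones 1 and 2 overlapped. Zone 4 minus zone 2 was -0.04 on the log2 scale under NaCl (95% interval -0.57 to 0.50, limma adjusted p = 0.914) and the arrays of the pair overlapped, while 63.9% of all probe sets passed. On standard medium zone 4 was lower than zone 2 (log2 difference -1.88, SE 0.25, limma adjusted p = 4.4e-06), where 66.3% of all probe sets differed between these zones in either direction. Whether the 2 media differed in this step was not tested. NaCl zone 3, at 179.5 and 242, lay above standard zone 4, at 145 and 65.4, and below standard zone 2.

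**Figure D1:**
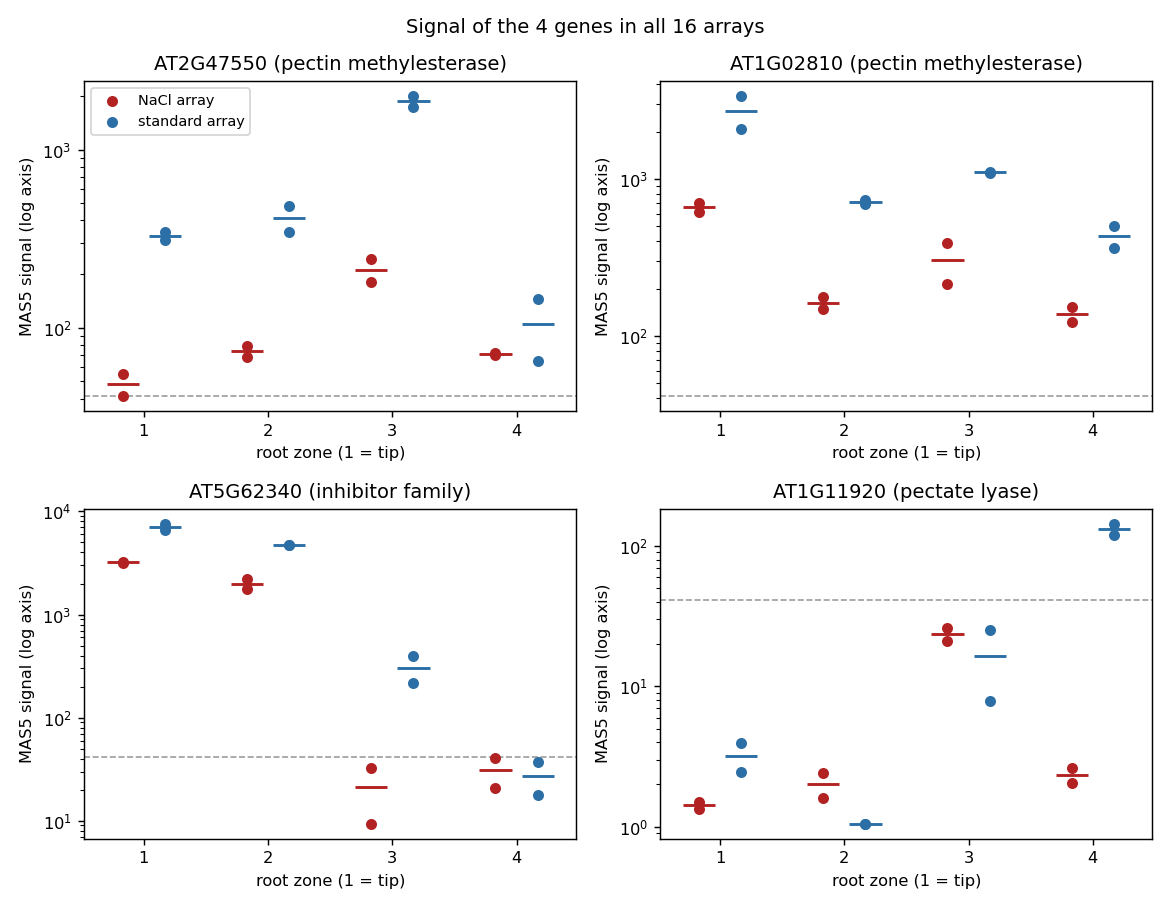
Signal of each gene on a log axis by root zone, with the NaCl arrays left of the standard arrays, a bar at the mean of each pair and a dashed line at the filter level of 41.357. AT2G47550 was highest in standard zone 3 (mean 1869), AT1G02810 and AT5G62340 in standard zone 1 (2714 and 7122), and AT1G11920 was above the line in standard zone 4 only (132).

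AT1G02810, the other methylesterase gene, was highest at the tip and was lower on NaCl in every zone, the standard mean being 3.13 to 4.4 times the NaCl mean. In zone 1 the NaCl arrays read 615 and 699, against 2064 and 3365 on standard medium. In zone 2 the values were 177 and 148 under NaCl and 692 and 736 on standard medium. The tip zone was thus the highest in either medium, and the gene was measured above the filter level of 41.357 on all 16 arrays. In zone 3 the values were 390.4 and 215 under NaCl and 1092 and 1102 on standard medium. In zone 4 they were 153 and 122 under NaCl and 497 and 364 on standard medium. Both NaCl arrays lay below both standard arrays in each of the 4 zones, which held for 3.22% of all probe sets tested, a share from which nothing is read here because the salt contrast chose the gene.

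The NaCl means of AT1G02810 were 24.2%, 22.7%, 27.6% and 31.9% of the standard means in zones 1 to 4. The log2 changes were -1.98, -2.04, -1.86 and -1.53. Whether the change differed between zones did not enter the choice of this gene, and it could be tested. The difference between zones did not pass (moderated F test of limma, adjusted p = 0.633), while 18.3% of all probe sets did. The change in zone 2 minus that in zone 1 was -0.06 (95% interval -0.79 to 0.67), zone 3 minus zone 2 was 0.18 (-0.55 to 0.91), and zone 4 minus zone 3 was 0.33 (-0.40 to 1.06). Differences of up to about 1 log2 unit between neighbouring zones therefore lie within these intervals.

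Differences between zones within a medium use the same arrays as the salt changes. The zone profile of AT1G02810 passed in both media, under NaCl (limma F test, adjusted p = 1.32e-06) and on standard medium (adjusted p = 2.7e-07). Most probe sets do so here, 82.2% under NaCl and 81.5% on standard medium. From high to low the zones ran 1, 3, 2 and 4 in both media, with means of 657 ± 58.9, 303 ± 124, 162 ± 20.5 and 137 ± 22.3 under NaCl and 2714 ± 920.3, 1097 ± 6.81, 714 ± 30.7 and 430.4 ± 94.5 on standard medium (SD, n = 2 each).

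Under NaCl, zone 3 of AT1G02810 was below zone 1 (log2 difference -1.13, SE 0.24, limma adjusted p = 0.000562) and above zone 2 by 0.79 (adjusted p = 0.0109). The second of these rested on zone 3 NaCl replicate 1, which read 390.4 against 215 in its partner, and was 0.38 (adjusted p = 0.232) without it. It was also lost without zone 2 NaCl replicate 2 (0.0815). Zones 4 and 2 did not pass (-0.22, 95% interval -0.74 to 0.30, limma adjusted p = 0.454) and their arrays overlapped. Under NaCl the zone 3 minus zone 1 contrast passed for 67.2% of all probe sets, zone 3 minus zone 2 for 57.1% and zone 4 minus zone 2 for 63.9%. Zone 2 was below zone 1 (log2 difference -1.92, SE 0.24, limma adjusted p = 1.02e-05), where 40.4% of all probe sets differed. Zone 4 was below zone 3 (-1.01, limma adjusted p = 0.00332), a call lost without zone 3 NaCl replicate 1, at -0.6. For zone 4 minus zone 3 no share of all probe sets is given.

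On standard medium zone 3 of AT1G02810 was below zone 1 (log2 difference -1.25, SE 0.24, limma adjusted p = 0.000237). Zone 3 was above zone 2 by 0.61 (limma adjusted p = 0.0446), a call lost with a pseudocount of 1 (adjusted p = 0.0621), median centring (0.0625), no filter (0.0752) or no variance trend (0.0769), and without any 1 of the 4 arrays of this pair (0.0968 to 0.15) or either zone 1 NaCl array (0.0507 and 0.0508). Of all probe sets, 65% passed for zone 3 minus zone 1, 54.2% for zone 3 minus zone 2 and 66.3% for zone 4 minus zone 2. Zone 2 was below zone 1 (log2 difference -1.86, SE 0.24, limma adjusted p = 1.72e-05), where 34.5% of all probe sets differed. Zone 4 was below zone 3 (-1.33, limma adjusted p = 0.00023), again with no share of all probe sets given. Zone 4 was below zone 2 (-0.73, limma adjusted p = 0.0149), a call lost without zone 4 standard replicate 8 (0.149) or zone 2 standard replicate 4 (0.0676).

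**Figure D2:**
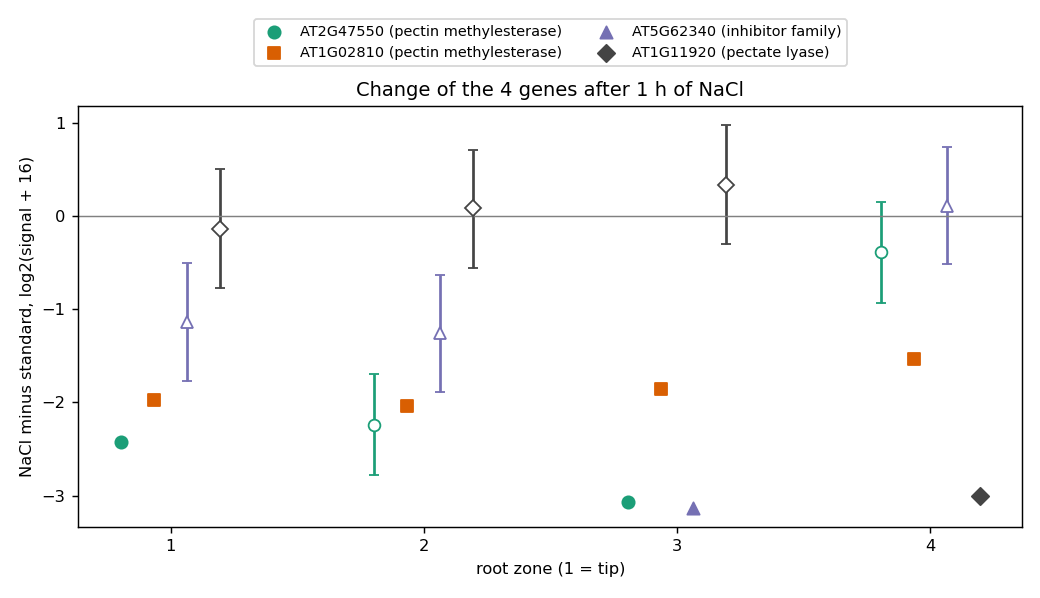
Change of each gene by zone, NaCl minus standard on the log2(signal + 16) scale, for 2 against 2 arrays. Filled marks are the zones that chose the gene and carry no interval, and open marks with 95% intervals are the zones that did not. AT1G02810 lies between -2.04 and -1.53 in all zones, while AT1G11920 is at -3.01 in zone 4. AT1G11920 in zones 1 to 3 and AT5G62340 in zone 4 were below the filter level in both media, so their marks near 0 show no measured change.

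AT5G62340, of the inhibitor family, was a gene of the tip and the meristem. In zone 1 the NaCl arrays read 3251 and 3178 and the standard arrays 6644 and 7599.8. In zone 2 they read 2209 and 1760.2 under NaCl and 4764 and 4736 on standard medium. In zone 3 the NaCl arrays read 9.35 and 32.8, against 392 and 217 on standard medium. In these 3 zones both NaCl arrays lay below both standard arrays, as for 22.5%, 26.1% and 32.3% of all probe sets tested in zones 1 to 3. Nothing is read from this separation, and zone 3 chose the gene. In zone 4 the gene was below the filter level in both media, at 40.6 and 20.9 under NaCl and 17.7 and 37.0 on standard medium.

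In the zones that did not choose it, AT5G62340 fell to 45.1% of the standard mean in zone 1 (log2 change -1.14, SE 0.30, limma adjusted p = 0.0222) and to 41.8% in zone 2 (-1.26, SE 0.30, adjusted p = 0.0104). The shares of all probe sets that passed downward were 4.63% in zone 1 and 5.2% in zone 2. The call in zone 1 was lost without any 1 of the 4 arrays of that zone (adjusted p up to 0.143), with a pseudocount of 1 (0.154), with quantile normalization (0.118) and without the variance trend (0.0542). The call in zone 2 was lost without zone 2 NaCl replicate 2 (0.0938) or either zone 2 standard array (0.0648 and 0.0583), and with a pseudocount of 1 (0.104). The log2 change stayed between -1.24 and -1.04 in zone 1 and between -1.42 and -1.10 in zone 2 as arrays were left out. In zone 4 every array was below the filter level, and no salt change is read there.

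In zone 3, which chose AT5G62340, both NaCl arrays were below the filter level of 41.357. Set at that level, NaCl zone 3 was at least 7.35-fold lower than the standard mean of 304. The log2 change of -3.13 depends on the pseudocount, since the NaCl signals are low: it was -3.97 with a pseudocount of 1 and -2.09 with 64. NaCl zone 3, at 9.35 and 32.8, read about as low as standard zone 4, at 17.7 and 37.0.

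AT5G62340 dropped steeply along the root in both media. Under NaCl the means ran 3215 ± 51.8, 1984 ± 317, 21.1 ± 16.6 and 30.8 ± 13.9 in zones 1 to 4 (SD, n = 2 each). On standard medium they ran 7122 ± 676, 4749.8 ± 19.9, 304 ± 124 and 27.4 ± 13.7. With zone 4 set at the filter level, it was at least 48.0-fold lower than zone 2 under NaCl and at least 115-fold lower on standard medium. The tests used the signals as read and not these bounds (log2 differences -5.44 and -6.82, limma adjusted p = 6.39e-11 and 3.66e-12). Between these zones 63.9% of all probe sets differed under NaCl and 66.3% on standard medium. Zone 2 minus zone 1 did not pass in either medium, at -0.70 under NaCl (95% interval -1.33 to -0.07, limma adjusted p = 0.0717) and -0.58 on standard medium (-1.21 to 0.05, adjusted p = 0.147). With a pseudocount of 64 both differences passed (limma adjusted p = 0.00923 under NaCl and 0.0299 on standard medium), and the NaCl one also passed without zone 3 NaCl replicate 1 (0.0406) or 2 (0.0408). Between these zones 40.4% of all probe sets differed under NaCl and 34.5% on standard medium.

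AT1G11920, the pectate lyase gene, was above the filter level on 2 of the 16 arrays, the standard arrays of zone 4. In zone 4 the NaCl arrays read 2.06 and 2.64, against 144 and 119.7 on standard medium. In zone 3 the NaCl arrays read 26.1 and 21.1 and overlapped with the standard arrays, at 7.88 and 25.2. In zones 1 and 2 every array of both media was at 3.95 or lower. AT1G11920 was thus above the filter level in standard zone 4 only, and it passed the filter only through that group.

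In zone 4, which chose AT1G11920, both NaCl arrays were under the filter level, and with NaCl set at that level it was at least 3.19-fold lower than the standard mean of 132. The log2 change of -3.01 was -5.31 with a pseudocount of 1 and -1.56 with 64, so its size depends on that constant. In zones 1 to 3 all signals of AT1G11920 were below the filter level in both media, so that no salt change and no order of these zones is read from them.

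Set beside each other, the 4 genes did not share one profile. Under NaCl the zone with the highest mean was zone 3 for AT2G47550 and zone 1 for AT1G02810 and AT5G62340, and AT1G11920 was below the filter level in every zone. On standard medium it was zone 3 for AT2G47550, zone 1 for AT1G02810 and AT5G62340, and zone 4 for AT1G11920. The number of genes with both NaCl arrays below both standard arrays was 4 of 4 in zone 1 (with AT1G11920 below the filter level there), 3 in zone 2, 3 in zone 3 and 2 in zone 4. Over all probe sets the shares were 22.5%, 26.1%, 32.3% and 27.1% in zones 1 to 4, and nothing is read from these counts because the genes were chosen for lower signals.

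Pearson correlations between the genes over the 16 arrays, which share zones and medium, were 0.579 between AT2G47550 and AT1G02810, 0.538 between AT1G02810 and AT5G62340, and 0.098 between AT2G47550 and AT5G62340. Within the 8 NaCl arrays these pairs, in the same order, correlated at -0.204, 0.419 and -0.68. Within the 8 standard arrays they correlated at 0.392, 0.681 and 0.218. AT5G62340 was above the filter level on 4 of these NaCl arrays and 6 of these standard arrays. No correlation is given for AT1G11920, which was above the filter level on 2 arrays only. These figures describe the arrays and carry no test.

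For each gene the 3 most similar of 9607 probe sets that name 1 other gene were taken by the correlation over the 16 arrays. The closest to AT2G47550 were AT5G67390 (0.948), AT1G64330 (0.919) and HAT2 (0.913), the gene of a homeodomain-leucine zipper transcription factor. AT5G67390 was below the filter level in zones 1 and 4 of both media and in NaCl zone 2, so its correlation rests in part on low signals. HAT2 read 279 and 339 in NaCl zone 3, against 1099.8 and 747 in standard zone 3. The closest to AT5G62340 were AT1G23100 (0.989), AT5G15520 (0.987) and AT5G64650 (0.987), all high in zones 1 and 2. AT5G64650 read 828 and 720.1 in NaCl zone 1 and 839.9 and 759.8 in standard zone 1, where the media overlapped.

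Closest to AT1G02810 were the probe sets of ccb452 (0.926), AT2G07708 (0.924) and AT2G07751 (0.914). All 3 carry the suffix _s_at, by which Affymetrix marks probe sets that match several transcripts, and the reference table places ccb452 in the mitochondrial genome. ccb452 read 255 and 334 in NaCl zone 1, against 541 and 657 in standard zone 1. AT1G11920 was closest to AT1G34330 (0.947), which the reference table lists as a transcribed pseudogene, then to AT1G25240 (0.897) and AT3G01730 (0.885), correlations that rest on its 2 arrays above the filter level and on 14 below it. AT3G01730 read 74.8 and 113 in NaCl zone 4, against 756 and 526 in standard zone 4, and it was also measured in zone 3.

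**Figure D3:**
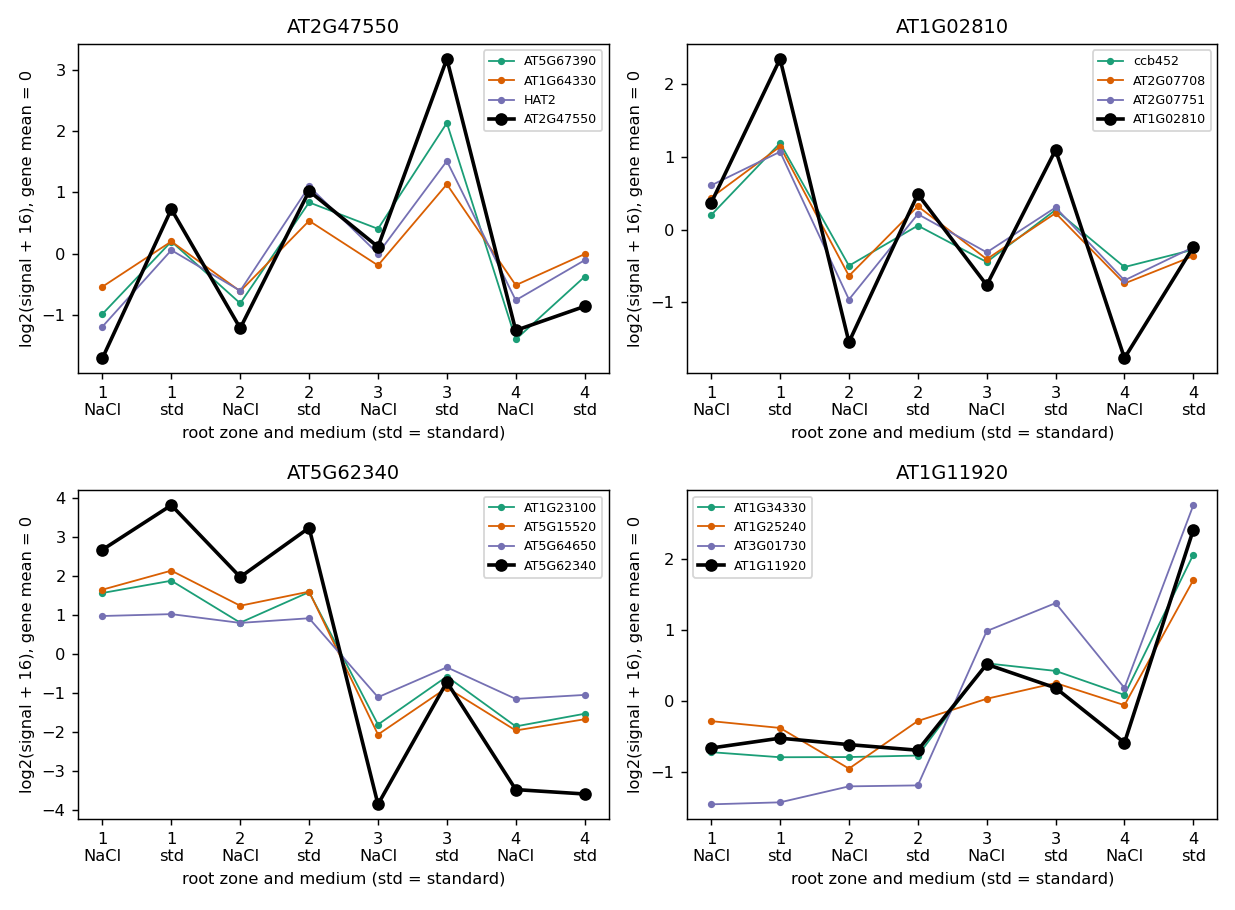
Mean log2(signal + 16) of each described gene (black) and of the 3 genes most similar to it over the 16 arrays, each centred on its own mean, for the 8 groups in order of zone with NaCl left of standard. AT5G62340 and its 3 matches, with correlations of 0.987 to 0.989, step down between zones 2 and 3, while AT1G11920 and AT1G34330 (0.947) peak in standard zone 4. That was the only group in which either of these last genes was above the filter level.

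The other genes of pectin modification moved in both directions. A list of 67 methylesterase genes, 2 of them described above, had 45 with a probe set of their own, and 23 outside those described passed the filter on low signals. Of these 23, in zone 1, 1 rose, 3 fell and 19 did not pass. In zone 2, 3 rose and 2 fell, in zone 3, 5 rose and 6 fell, and in zone 4, 2 rose and 3 fell. The rises include AT2G43050 in zone 2 (means of 18.0 under NaCl and 3.5 on standard medium) and AT1G05310 in zone 3 (28.1 and 3.63). Both compare means below the filter level, so no salt change is read from them. Over all probe sets the shares that rose and fell were 5.01% and 4.63% in zone 1, 6.19% and 5.2% in zone 2, 12.6% and 13.2% in zone 3, and 5.5% and 6.56% in zone 4, against 21.7% and 26.1% of the list in zone 3. Single arrays moved these counts: 2 passed in zone 1 without NaCl replicate 1 or standard replicate 2, and 2 in zone 2 without NaCl replicate 1 or standard replicate 4. In zone 3, 7 passed without NaCl replicate 2, and in zone 4, 3 without NaCl replicate 2. The median log2 change of the list was -0.01, 0.08, 0.06 and -0.09 in zones 1 to 4, and that of all probe sets 0.05, 0.02, -0.01 and -0.02.

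AT3G10720 was the methylesterase gene of the list with the highest mean signal, and it fell in zones 1, 2 and 3, where AT1G02810 was also lower. Its NaCl and standard means were 474 and 1501 in zone 1, 1168 and 2443 in zone 2, and 569.6 and 1702 in zone 3. The log2 changes of AT3G10720 there were -1.63, -1.05 and -1.55 (limma adjusted p = 1.95e-05, 0.00103 and 8.59e-06). In zone 4 the means were 5.6 under NaCl, below the filter level, and 57.5 on standard medium, so that the fall there was at least 1.39-fold. The test there used the signals as read and not this bound (log2 change -1.74, limma adjusted p = 5.72e-06). AT5G04970 fell in zones 1 and 3 (log2 changes -1.26 and -1.39, limma adjusted p = 0.000119 and 1.13e-05), and had -0.06 and -0.02 in zones 2 and 4. AT3G47400 fell in zones 1 and 2 (log2 changes -0.55 and -0.64), though the first call was lost without zone 1 NaCl replicate 1 (adjusted p = 0.182) or either zone 1 standard array (0.112 and 0.104), and the second without NaCl replicate 1 (0.0749) or standard replicate 4 (0.0795) of zone 2.

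Other methylesterase genes rose. AT5G53370, named PMEPCRF in the reference table, rose in zone 3 to 1440.5 under NaCl against 407 on standard medium (log2 change 1.78, SE 0.19, limma adjusted p = 3.54e-06). It rose in zone 2 to 69.1 under NaCl against 9.61 on standard medium, at least 1.67-fold because the standard mean is below the filter level. The test there used the signals as read and not this bound (log2 change 1.72, limma adjusted p = 1.5e-05). AT3G49220 rose in zone 4, to 1426 under NaCl against 453 on standard medium (1.61, SE 0.16, adjusted p = 3.52e-06). AT3G43270 rose in zones 2, 3 and 4 by 1.21, 0.75 and 1.20 (limma adjusted p = 0.00464, 0.0375 and 0.00395), and each of these calls was lost with a pseudocount of 1 (0.117, 0.307 and 0.149). Single arrays decided them too, with adjusted p = 0.0565 in zone 2 without NaCl replicate 1, 0.0555 there without standard replicate 4, 0.117 to 0.138 in zone 3 without any 1 of its 4 arrays, and 0.0518 in zone 4 without NaCl replicate 2. AT2G36710 passed in the average over zones (0.58, limma adjusted p = 0.0128), as did 15.6% of all probe sets upward and 15.3% downward, with group means of 3.36 to 51.1. Only its NaCl zone 4 mean was above the filter level, and it passed in no single zone in the fit reported, so no rise is read from it. AT5G04960 fell in zone 4, to 807 under NaCl against 2952 on standard medium (-1.86, SE 0.27, adjusted p = 0.000166), the zone where AT1G11920 was also lower.

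**Figure D4:**
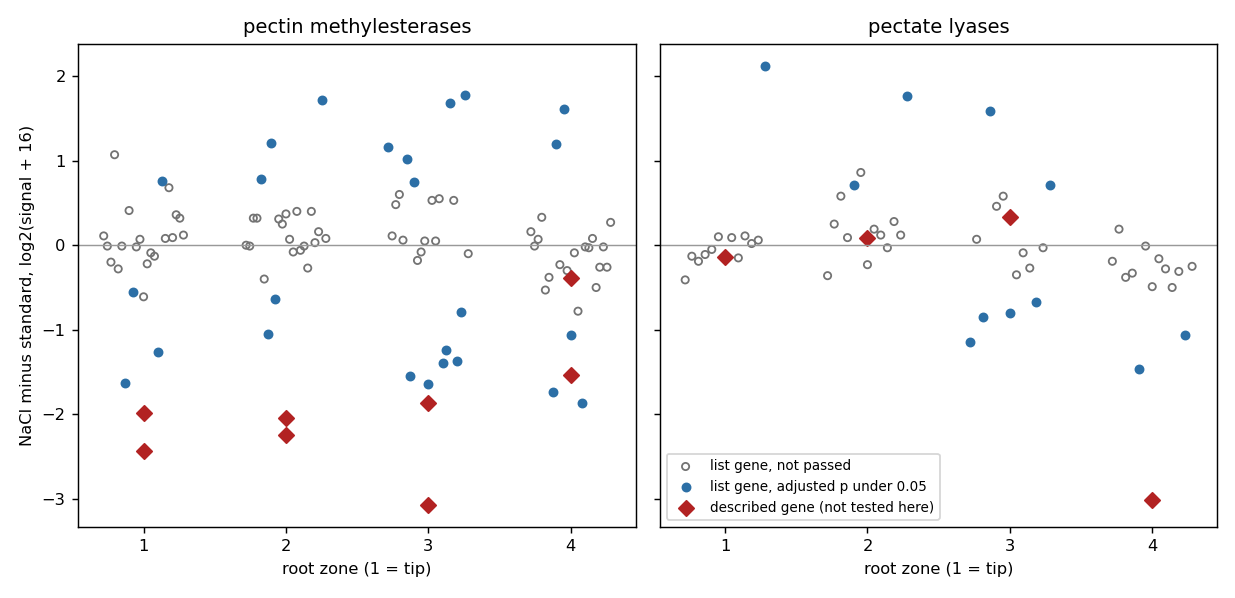
Log2 change by zone, NaCl minus standard, of the methylesterase list (left) and the pectate lyase list (right), with genes spread sideways for sight only. Blue points passed an adjusted p of 0.05, open circles did not, and red diamonds are the described genes. In zone 3, 5 methylesterase genes rose and 6 fell, with the described pair at -3.07 and -1.86. Among the rises there, AT1G05310 had both means below the filter level.

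Among the pectate lyases, 23 of 27 list genes had a probe set of their own, and 13 outside AT1G11920 passed the filter. In zone 1, 1 rose and 0 fell by limma (1 each at an unadjusted p under 0.05), in zone 2, 2 rose and 0 fell (4 and 1 unadjusted), in zone 3, 2 rose and 4 fell, and in zone 4, 0 rose and 2 fell (0 and 4 unadjusted). In zone 2 the count was 1 without NaCl replicate 1 or standard replicate 3, and in zone 4 it was 4 without NaCl replicate 2 and 1 without standard replicate 7. In zone 3, 15.4% of the list rose and 30.8% fell, against 12.6% and 13.2% of all probe sets, and in zone 4, 15.4% fell against 6.56%. In zone 1, 7.69% rose against 5.01%, and in zone 2, 15.4% against 6.19%. The median log2 change of the list was -0.05, 0.19, -0.09 and -0.31 in zones 1 to 4, and that of all probe sets 0.05, 0.02, -0.01 and -0.02. AT5G48900, the lyase gene with the highest mean signal, rose in zones 1, 2 and 3, to 2055, 5426 and 3465 under NaCl against 459.6, 1579.6 and 2105 on standard medium. Its log2 changes were 2.12, 1.77 and 0.71 (SE 0.15 each, limma adjusted p = 1.76e-07, 8.65e-07 and 0.00218) and it rose at the tip, where AT2G47550 and AT1G02810 were lower.

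AT3G24670 fell in zone 4, to 237 under NaCl against 683 on standard medium (-1.46, SE 0.17, limma adjusted p = 1.53e-05), the zone in which AT1G11920 was lower. It rose in zone 2 by 0.71 (adjusted p = 0.0104), a call lost without NaCl replicate 1 (0.145) or standard replicate 3 (0.0818) of that zone. The zone 3 change of AT3G24670, 0.46, did not pass (limma adjusted p = 0.0545). It passed with a pseudocount of 64 (0.0418), quantile normalization (0.0211), a filter at the 60th percentile (0.0467) and separate fits (0.0307). AT1G04680 fell in zone 3 (log2 change -1.15, limma adjusted p = 5.51e-05), and AT3G53190 (-0.80, adjusted p = 0.00482) and AT4G24780 (-0.67, adjusted p = 0.00541) fell there too. The last 2 calls were lost without single arrays of zone 3, that of AT3G53190 without NaCl replicate 1 (0.0669) or standard replicate 6 (0.0632) and that of AT4G24780 without standard replicate 5 (0.117). Of 15 genes of pectin synthesis, AT1G19430 alone had a probe set of its own, and it fell in zone 3 (log2 change -0.91, limma adjusted p = 0.0004). The lists of named inhibitor genes, polygalacturonases and pectin acetylesterases had 5, 7 and 6 genes and none with a probe set of its own.

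**Figure D5:**
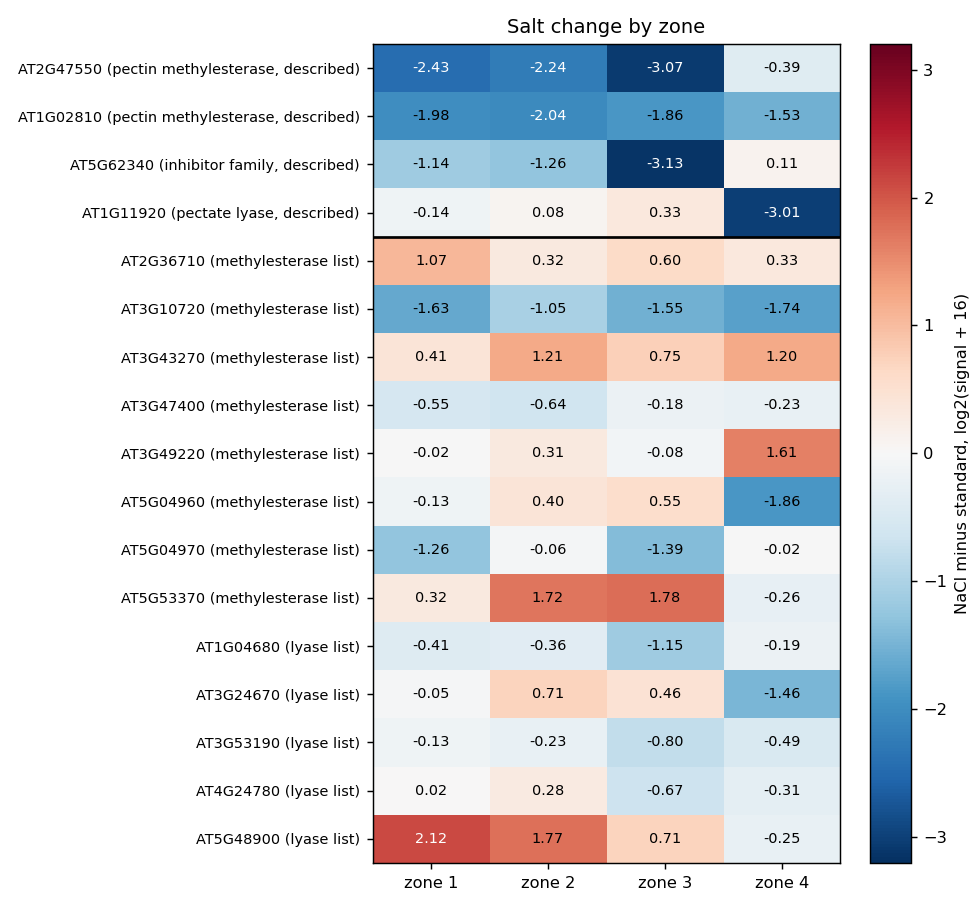
Log2 change by zone, NaCl minus standard, of the 4 described genes (above the line) and of the named genes of the methylesterase and lyase lists. Red is higher and blue lower under NaCl. AT3G10720 is blue in zones 1 to 3, at -1.63, -1.05 and -1.55, and in zone 4, where its NaCl mean was below the filter level, and AT5G48900 is red in zones 1 to 3, at 2.12, 1.77 and 0.71.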

How the data were processed

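Per the labels' protocols, RNA of pooled root sections was amplified in 2 cycles and biotin-labelled, and per the submitters' processing notes MAS5 gave the signal of each probe set. What the authors deposited is the intensity of each probe set on a linear scale. On each array their 2% trimmed mean lay between 250.025 and 250.03, and the median between 58.633 and 76.969. Detection calls and dates were not used here, and build and software versions are not given in the sources used here.

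Of 22810 probe sets, 64 controls were left out, and 17099 with at least 2 of 16 arrays above the 40th percentile (signal 41.357) were tested as log2(signal + 16). A model with 8 group means was fitted in limma 3.58.1 (R 4.3.3; eBayes with trend, 8 residual and 8.61 prior degrees of freedom). Tests were two-sided, with Benjamini-Hochberg adjustment over all probe sets at 0.05. The script was tested on simulated data. Gene names came from the platform's probe table, joined by gene ID to the RefSeq table of assembly TAIR10.1, used for names only.

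The described genes, the lists and the tests were chosen with earlier results of these data known. The methylesterase, lyase and synthesis lists were written from general knowledge of the families. Named from each list were the 5 genes of highest mean signal and up to 3 rises and 3 falls, the largest on average among those that passed with the same sign in all zones. Comparisons of zones that do not adjoin were added after the data were seen. The labels do not say whether replicates came from separate cultures. The p-values set each difference against the spread between arrays of a group, pooled over the 8 groups and moderated by limma. That spread may be only technical. Precision is limited by how few arrays there are. Replicate numbers are shared by the NaCl groups and standard zone 1, but same-numbered arrays did not deviate together (correlations between -0.016 and 0.057 over 10 group pairs), so no pairing was used.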

Additional observations from a re-analysis of the deposited data

Results flagged for a closer look

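By limma's moderated F test, the salt change differed between zones for 9 of 23 methylesterase genes, 7 of 13 lyase genes and 1 of 1 synthesis gene tested outside the described genes, and for 18.3% of all probe sets. Those among the genes named here were 4 of 8, 4 of 5 and 1 of 1. Among the lyases, AT5G48900 had 2.12, 1.77, 0.71 and -0.25 on the log2 scale, zone 1 first (adjusted p = 8.87e-06). AT3G24670 had -0.05, 0.71, 0.46 and -1.46 (adjusted p = 5.02e-05). AT4G24780 had 0.02, 0.28, -0.67 and -0.31 (adjusted p = 0.0295), and AT1G04680 had -0.41, -0.36, -1.15 and -0.19 (adjusted p = 0.0241). Among the methylesterases, AT3G49220 had -0.02, 0.31, -0.08 and 1.61 (adjusted p = 0.000207). AT5G53370 had 0.32, 1.72, 1.78 and -0.26 (adjusted p = 9.74e-05). AT5G04960 had -0.13, 0.40, 0.55 and -1.86 (adjusted p = 0.00102), and AT5G04970 had -1.26, -0.06, -1.39 and -0.02 (adjusted p = 0.000504). AT1G19430, of the synthesis list, had 0.28, 0.25, -0.91 and -0.15 (adjusted p = 0.00326). AT5G53370 and AT5G04960 were below the filter level in both media in zone 1, AT5G04960 also in zone 2 and AT5G04970 in zone 4. For the list genes this test was not checked under other processing or with arrays left out. The zone 3 change of AT4G24780 was -0.43 without standard replicate 5 of that zone. The test was not applied to AT2G47550, AT5G62340 and AT1G11920, which were chosen for their change in single zones.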

How the results depend on the processing

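Beside leaving out each of the 16 arrays, 9 alternatives were run: other pseudocounts (1 and 64), normalizations (quantile, median centring), filters (none, 60th percentile), no variance trend, a replicate block, and separate fits by zone or medium. For the lists, all probe sets per gene were also used. In the zones that chose them, all 4 genes stayed lower under NaCl in every alternative run. Nothing is read from this, because the same values chose the genes. With a pseudocount of 64 the changes were -1.81 and -2.82 for AT2G47550 in zones 1 and 3, -1.79 for AT1G02810 in zone 2, -2.09 for AT5G62340 in zone 3 and -1.56 for AT1G11920 in zone 4. With a pseudocount of 1 they were -2.75 for AT2G47550 in zone 1, -3.97 for AT5G62340 and -5.31 for AT1G11920. For AT5G62340 the zone 1 change lost its call at -1.14 (pseudocount 1, and no trend) and -0.89 (quantile normalization), and the zone 2 change at -1.27 (pseudocount 1).

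As arrays were left out, the change of AT5G62340 ranged from -1.24 to -1.04 in zone 1, -1.42 to -1.10 in zone 2 and -0.21 to 0.44 in zone 4. That of AT2G47550 in zone 4 ranged from -0.88 to 0.10, and that of AT1G11920 in zone 3 from -0.06 to 0.73. The last 3 of these ranges cross 0, and only AT2G47550 without standard replicate 8 passed. No direction is read for AT5G62340 in zone 4 and AT1G11920 in zone 3, whose signals were below the filter level. The zone test of AT1G11920 under NaCl ranged from an adjusted p of 0.0019 to 0.0598, its highest without zone 3 NaCl replicate 1, and compares signals below the filter level. The difference of AT2G47550 between NaCl zones 4 and 2 ranged from -0.12 to 0.05.

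The methylesterase count was 7 in zone 3 (11 in the fit reported) and 3 in zone 4 (5) with a pseudocount of 1, and the lyase count on average 5 (3) with 64. With arrays left out, the methylesterase count ranged from 2 to 5 in zones 1 and 2, 7 to 11 in zone 3 and 3 to 5 in zone 4. The lyase count ranged from 1 to 3 in zone 2, 1 to 4 in zone 4 and 3 to 6 on average. The replicate block ended 1 call of a described gene, AT1G11920 in standard zone 3 minus zone 1 (0.71, adjusted p = 0.0552), and no other. That call, between signals below the filter level, was also lost on leaving out each of 15 of the 16 arrays, with a pseudocount of 64, with quantile normalization and in separate fits, and it is not used.

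Among list genes, changes that had not passed turned sign with median centring for AT4G24780 in zone 1 (-0.03) and AT5G04970 in zone 4 (0.01). With arrays left out, such changes ranged in zone 1 from -0.26 to 0.15 for AT3G24670, -0.16 to 0.19 for AT4G24780, -0.18 to 0.14 for AT3G49220, -0.29 to 0.02 for AT5G04960 and -0.12 to 0.95 for AT3G43270. In zone 2 they ranged from -0.12 to 0.92 for AT5G04960 and -0.26 to 0.13 for AT5G04970. In zone 4 they ranged from -0.52 to 0.02 for AT5G48900, -0.39 to 0.01 for AT1G04680 and -0.06 to 0.02 for AT5G04970. At an end of its range AT3G43270 passed in zone 1 (adjusted p = 0.0137), AT5G04960 in zone 2 (0.0438) and AT5G48900 in zone 4 (0.0322), of which the first and second compare signals below the filter level. The causes were not tested.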
